A study of Mus musculus with 6 samples.

Results

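The 10 genes described here encode the 2 main beta-thymosins (Tmsb4x and Tmsb10), the 2 cytoplasmic actins (Actb and Actg1), 4 proteins that bind actin (Cfl1, Pfn1, Coro1a and Lcp1), the intermediate filament protein vimentin (Vim) and galectin-1 (Lgals1). They were taken by gene name from 54532 genes of an RNA sequencing table. They were chosen with their difference between the groups already known, so that difference is given below as a description with no test. RNA came from bone marrow (BM) of C57BL/6 mice 100 days after transplantation, from a mouse model of leukemia of the T-cell lineage. All 6 libraries carry JAK3 M511I, an activating form of a Janus kinase that was put into lineage-negative donor cells with a retrovirus. The 3 control libraries carry the label wild-type (WT) for Phf6 and the other 3 the label Phf6 knockout (KO). Per the study's text, donors and recipients were male, and the profiled knockout was made with Cre under the Vav1 promoter, which is active in blood cells, with Phf6 fl/y and no Cre in the controls. Recipients had been irradiated, and remaining host cells of the marrow can add RNA to a library. The labels name no Cre and do not say whether leukemic cells were sorted from the marrow, nor that the libraries of a group came from separate mice. P-values therefore measure the spread between libraries, which may be technical.

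Actin exists as single subunits and as filaments, and cells keep a large reserve of subunits. Beta-thymosins hold subunits in reserve, profilin hands them to growing filament ends, and cofilin cuts old filaments so that subunits return. Coronin-1A and L-plastin (encoded by Coro1a and Lcp1) are the blood cell forms of a filament-binding and a filament-bundling protein, and lymphocytes and myeloid cells use this machinery to crawl, to form contacts and to take up particles.

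Between 13015823 and 18235095 fragments (called reads here) were recovered per library. WT 2 stood apart from the rest. Its summed FPKM (fragments per kilobase of gene length and per 1000000 fragments) was 897352, compared with 244936 to 329893 in the other 5 libraries, and genes shorter than 1000 bases took 17.1% of its reads, compared with 3.11% to 5.01%. The log2 differences of the 10 genes are therefore given with and without WT 2, and ratios and shares by library or as group means. Phf6 itself had an FPKM of 3.67 to 8.02 in the WT-labelled and 5.11 to 6.73 in the KO-labelled libraries (log2 difference -0.073, SE 0.33, limma, adjusted p = 0.893). Only some exons of Phf6 are flanked by loxP sites, so a value over the whole gene does not check the deletion, and directions below rest on the labels. T cell markers were present in every library, and their summed FPKM was 1036 to 1808 in WT and 1415 to 1670 in KO (in TPM, 2015 to 3970 and 5641 to 6819).

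The coding sequences of the 2 thymosins are shown first because these genes gave the widest differences and because their similarity decides whether reads can be told apart. Both are 135 bases long and lie on the minus strand of GRCm38, Tmsb4x within chrX:167207501-167208036 and Tmsb10 within chr6:72957618-72958012, each with introns removed. Capitals mark the bases at which the 2 differ.
Tmsb4x: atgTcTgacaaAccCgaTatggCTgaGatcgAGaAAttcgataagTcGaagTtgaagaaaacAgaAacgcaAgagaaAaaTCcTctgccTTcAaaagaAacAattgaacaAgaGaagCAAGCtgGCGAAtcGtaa
Tmsb10: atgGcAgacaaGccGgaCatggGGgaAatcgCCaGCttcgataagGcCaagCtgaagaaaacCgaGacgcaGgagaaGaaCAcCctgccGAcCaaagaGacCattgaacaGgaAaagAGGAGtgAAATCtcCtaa
They share 95 of 135 bases (70.4%), and the longest stretch common to the 2 annotated transcripts was 10 bases. Reads of Tmsb4x and Tmsb10 are thus separable by sequence. The 2 actin genes are closer, with 1000 of 1128 coding bases identical (88.7%) and a longest common stretch of 62 bases, and how reads that fit both were counted is not stated.

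Tmsb4x encodes thymosin beta-4, the most abundant subunit-sequestering peptide of blood cells. The gene lies on chromosome X (ENSMUSG00000049775, 167207093 to 167209315, minus strand). Its FPKM was 1845, 8869 and 1279.9 in WT 1, WT 2 and WT 3, and 217, 344 and 410.3 in KO 1, KO 2 and KO 3. Every WT library was thus above every KO library, and WT 2 was far above the other WT libraries. The means were 3998 ± 4228 and 324 ± 98.5 (SD, n = 3 each). On the log2(FPKM + 1) scale the difference, KO minus WT, was -3.14 (SE 0.84), and without WT 2 it was -2.29 (SE 0.32). Tmsb4x ranked 8th, 9th and 19th of all genes by FPKM in WT 1, WT 2 and WT 3, but 124th, 69th and 54th in KO 1, KO 2 and KO 3.

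Tmsb10 encodes the related thymosin beta-10 (ENSMUSG00000079523, chromosome 6, 72957347 to 72958748, minus strand). FPKM values were 548, 2805 and 689 in WT 1 to WT 3 and 63.0, 18.0 and 17.9 in KO 1 to KO 3. The groups were far apart, and within the KO group KO 1 stood 3.53-fold above the lowest library. This was the widest difference of the 10 genes, at -5.17 (SE 0.79) on the log2 scale and -4.44 (SE 0.56) without WT 2. Even the library with the fewest reads of Tmsb10, KO 2, had 362. The ratio of Tmsb10 to Tmsb4x, in which the scaling of a library cancels, was 0.297, 0.316 and 0.538 in WT 1 to WT 3 and 0.291, 0.0523 and 0.0435 in KO 1 to KO 3. KO 1 lay just under the lowest WT library in this ratio, and the other KO libraries lay well below.

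**Figure D1:**
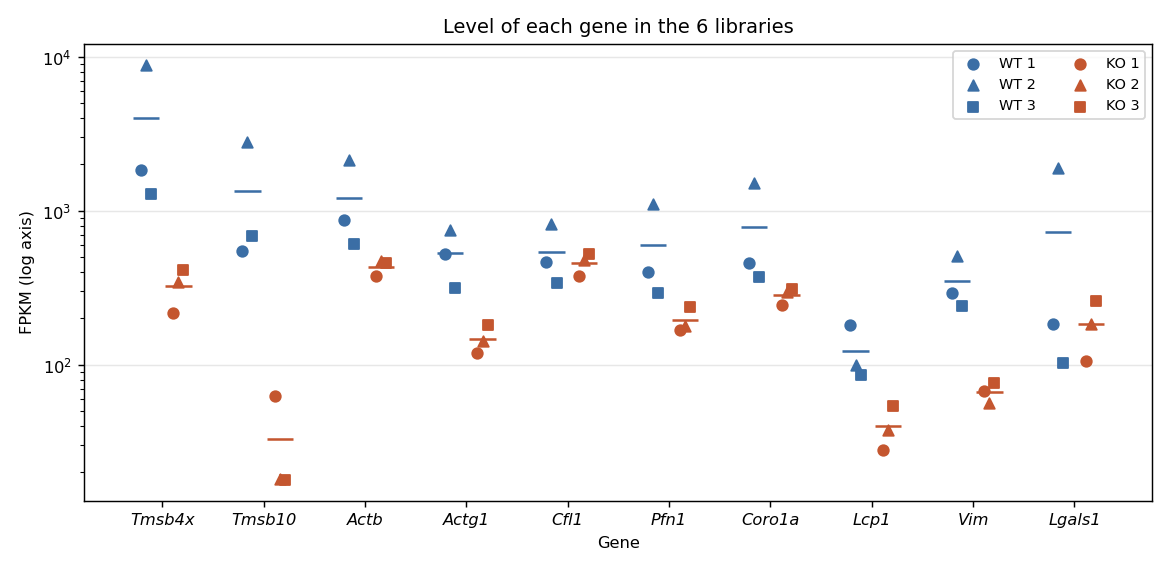
FPKM of each gene (log axis) in the 3 WT (blue) and 3 KO (orange) libraries, with marker shape giving the library number and short lines the group means. Groups are apart for 8 genes, overlap for Cfl1 and Lgals1, and WT 2 is the highest library for 9 of the 10.

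The actins form the filaments themselves. Actb, which encodes beta-actin (ENSMUSG00000029580, chromosome 5, 142903115 to 142906754, minus strand), showed FPKM values of 876, 2131 and 607 in WT 1 to WT 3 and of 375, 469.9 and 456 in KO 1 to KO 3. Although the groups did not overlap, WT 3 and KO 2 were close. The log2 difference was -1.27 (SE 0.59), or -0.76 (SE 0.22) without WT 2. For Actg1, which encodes gamma-actin (ENSMUSG00000062825, chromosome 11, 120345690 to 120348542, minus strand), FPKM was 522, 750.2 and 317 in WT 1 to WT 3 and 119, 143 and 182 in KO 1 to KO 3. Here the gap between the groups was wider, at -1.77 (SE 0.44) on the log2 scale and -1.47 (SE 0.28) without WT 2. Gamma-actin RNA relative to beta-actin RNA was 0.596, 0.352 and 0.521 in WT and 0.318, 0.305 and 0.399 in KO, ranges that overlapped through WT 2.

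Cfl1 and Pfn1 encode the 2 proteins that turn the subunit pool over. Cfl1, encoding cofilin-1 (ENSMUSG00000056201, chromosome 19, 5490455 to 5495201, plus strand), showed FPKM values of 466, 818 and 341 in WT 1 to WT 3 and of 378, 477 and 523 in KO 1 to KO 3. The groups overlapped, with a log2 difference of -0.15 (SE 0.48), and of 0.19 (SE 0.22) without WT 2. In contrast, Pfn1, encoding profilin-1 (ENSMUSG00000018293, chromosome 11, 70651850 to 70654644, minus strand), had 400.2, 1108 and 294 in WT and 168, 179.7 and 239 in KO, which did not overlap. The log2 difference of Pfn1 was -1.39 (SE 0.57), and -0.82 (SE 0.22) without WT 2. Within a library, Pfn1 stood at 0.859, 1.35 and 0.862 times the FPKM of Cfl1 in WT 1 to WT 3 and at 0.445, 0.377 and 0.457 times in KO 1 to KO 3. This ratio separated the groups clearly, whereas Pfn1 over Actb did not (0.487 ± 0.0314 in WT and 0.452 ± 0.0711 in KO, SD, n = 3 each). Cfl1 over Actb was 0.532, 0.384 and 0.562 in WT and 1.01, 1.02 and 1.15 in KO, so cofilin RNA reached the level of beta-actin RNA in KO only among these 6 libraries.

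Coro1a (ENSMUSG00000030707, chromosome 7, 126699773 to 126707787, minus strand) showed FPKM values of 455, 1524 and 373 in WT 1 to WT 3 and of 243, 297 and 309 in KO 1 to KO 3. As a ratio of the lowest WT to the highest KO library, its groups were apart by the narrowest margin of the 8. The log2 difference went from -1.18 (SE 0.62) to -0.55 (SE 0.18) when WT 2 was left out. Lcp1 (ENSMUSG00000021998, chromosome 14, 75131101 to 75230842, plus strand) showed another order of libraries. It had 182, 100.2 and 86.3 in WT 1 to WT 3 and 28.0, 37.7 and 54.1 in KO 1 to KO 3, and was the only gene of the 10 for which WT 2 was not the highest library. The log2 difference of Lcp1 was -1.57 (SE 0.40), and -1.68 (SE 0.39) without WT 2.

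Vim encodes vimentin, the intermediate filament protein of mesenchymal cells and most leukocytes (ENSMUSG00000026728, chromosome 2, 13573927 to 13582826, plus strand). FPKM was 294, 512 and 241 in WT 1 to WT 3 and 67.3, 56.3 and 76.1 in KO 1 to KO 3. The groups did not overlap, and the difference was -2.31 (SE 0.38) on the log2 scale and -1.99 (SE 0.18) without WT 2. Lgals1 encodes galectin-1, a secreted sugar-binding protein that can trigger death of T cells (ENSMUSG00000068220, chromosome 15, 78926725 to 78930465, plus strand). Its FPKM was 185, 1888 and 103 in WT 1 to WT 3, and 106, 183 and 259 in KO 1 to KO 3. WT 2 was 13.1 times the mean of WT 1 and WT 3, and those 2 libraries lay within or just below the KO range. The log2 difference was -0.94 (SE 1.08), and 0.31 (SE 0.43) without WT 2, so the sign of Lgals1 turned on 1 library.

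All 10 genes passed the filter on low values. Of them, 8 had groups that did not overlap, lower in KO, and 0 had groups apart in the other direction. Over all 13393 genes tested, 49.1% had non-overlapping groups, 22.9% with KO lower and 26.2% with KO higher. Because the genes were chosen from this contrast, the count describes them and shows nothing further. The median log2 difference of the 10 was -1.48, compared with 0.086 over all genes, and it was -1.15 without WT 2, compared with 0.040. The values ran from -5.17 (Tmsb10) to -0.15 (Cfl1). The groups of the same 8 genes stayed apart without WT 2, when 34.4% of all genes were apart with KO lower and 37.7% with KO higher. Cell number and RNA per cell cannot be told apart in bulk RNA, so a lower value can mean fewer cells that express a gene or less of its RNA in each cell.

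The size of these differences, and for some genes their direction, depended on how libraries were put on one scale. When each library was rescaled to TPM (its FPKM values scaled to sum to 1000000), the median log2 difference of all genes moved from 0.086 to 0.86 and that of the 10 genes from -1.48 to -0.65. Thymosins and vimentin remained far apart, at -2.30 (Tmsb4x), -4.37 (Tmsb10) and -1.48 (Vim). Actb was then at -0.43 and Coro1a at -0.34, while Cfl1 was at 0.69, with every KO library (1542, 1902 and 2036 TPM) above every WT library (1412, 912 and 1115 TPM). Lcp1 overlapped on this scale, since WT 2 (112 TPM) lay just below the KO range of 114 to 211 TPM, with WT 1 and WT 3 above it. Groups of 7 genes were apart with KO lower and of 1 gene with KO higher in TPM, where 11.3% and 47.2% of all genes were. After quantile normalization, Actb (0.0062) and Coro1a (0.037) changed sign, Cfl1 was at 1.05, and 4 of the 10 genes stayed apart with KO lower. The share of all genes apart was not counted after quantile normalization. Rescaling to TPM multiplies all genes of a library by the same factor. Relative to the median of all genes, the values were thus bound to be nearly alike on both scales, and this likeness shows nothing further. They ran from -5.25 to -0.24 in FPKM and from -5.23 to -0.17 in TPM, below 0 for all 10 genes on both. Without WT 2, in FPKM, Cfl1 (0.19) and Lgals1 (0.31) lay above the median of all genes (0.040).

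**Figure D2:**
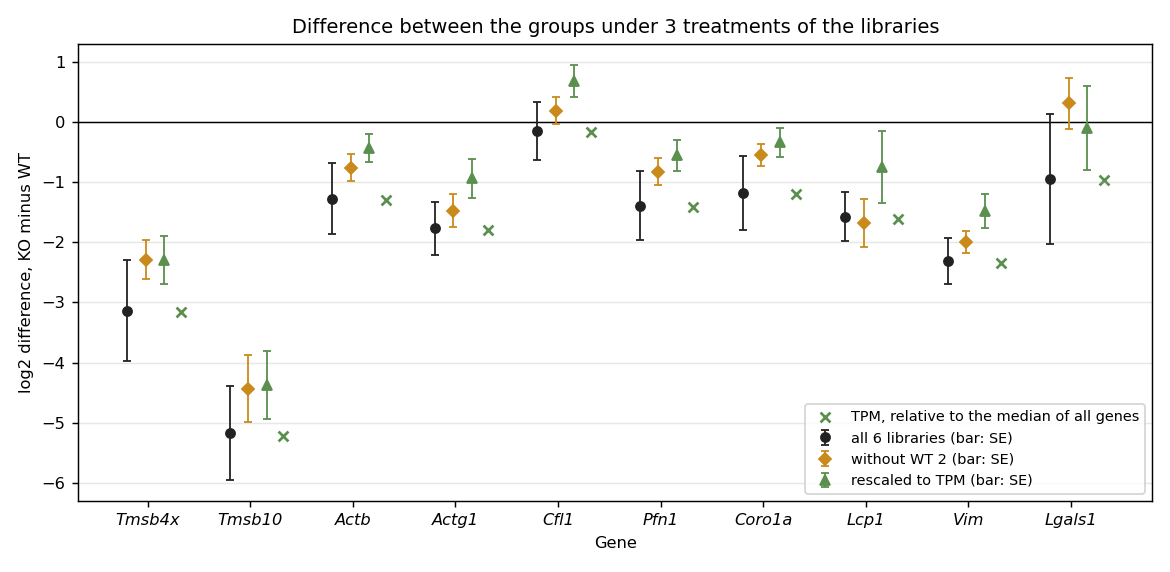
Log2 difference (KO minus WT) of each gene with its standard error, from all 6 libraries (black), without WT 2 (yellow) and after rescaling to TPM (green triangles), with crosses for TPM relative to the median of all genes. Tmsb10, Tmsb4x and Vim stay at or below -1.48 under each, Cfl1 goes from -0.15 to 0.69, and Lgals1 from -0.94 to 0.31.

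The mix of the 10 genes within a library does not depend on that scaling, and it differed between the groups. Tmsb4x was the leading gene in all 3 WT libraries and Cfl1 in all 3 KO libraries. Of the summed FPKM of the 10 genes, Tmsb4x made up 32.0%, 43.3% and 29.5% in WT 1 to WT 3 and 12.3%, 15.6% and 16.2% in KO 1 to KO 3. Tmsb10 made up 13.0% ± 3.26 in WT and 1.70% ± 1.62 in KO (SD, n = 3 each). Shares of Cfl1 (6.64% ± 2.30 and 21.2% ± 0.491), Coro1a (7.98% ± 0.598 and 13.2% ± 0.80), Actb (13.2% ± 2.49 and 20.2% ± 1.87) and Pfn1 (6.37% ± 0.845 and 9.04% ± 0.781) were higher in KO, with no overlap (SD, n = 3 each). Those of Actg1, Lcp1, Vim and Lgals1 overlapped between the groups. Together, the 10 genes took 1.37%, 2.41% and 1.03% of all reads in WT 1 to WT 3 and 0.507%, 0.642% and 0.701% in KO 1 to KO 3.

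**Figure D3:**
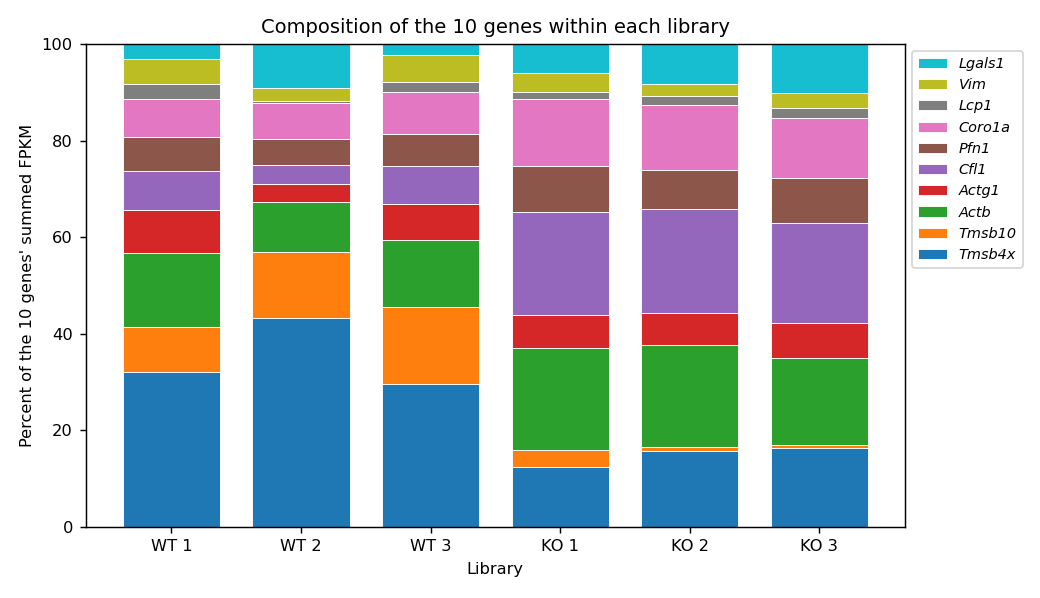
Percent of the summed FPKM of the 10 genes that each contributes, for each library (stacked bars, 100% in all). The 2 thymosins at the bottom shrink from WT to KO, where Cfl1 rises from 6.64% to 21.2% on average.

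The excess of WT 2 varied with gene length, though not in one direction. Among genes tested, the median log2 ratio of WT 2 to the mean of WT 1 and WT 3 was -0.32 for the 2368 genes under 1000 bases, 0.81 for the 786 genes of 1000 to under 1500 bases, 0.42 for the 1868 genes of 2000 to under 3000 bases and -0.92 for the 1718 genes of 8000 bases or more. Lgals1 (903 bases), Tmsb4x (1371 bases) and Tmsb10 (1276 bases) are the shortest of the 10 and had the highest log2 ratios, at 3.70, 2.50 and 2.18, although other genes as short as Lgals1 mostly had ratios below 0. Lcp1, the longest with 9504 bases, had -0.42. The 7 genes from 1000 to under 3000 bases thus sat above the median of genes of their length. After removal of a length trend from each library, the log2 differences were -3.06 (Tmsb4x), -5.11 (Tmsb10) and -0.96 (Lgals1), close to those before.

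Promoters were read for the 8 genes that RefSeq (GRCm38.p6) lists in a table of windows from 250 bases before to 50 after a transcript start. Actb and Lgals1 had no entry, so their promoters were not read. The start listed for Coro1a lies 2971 bases inside the gene as deposited. The Actg1 promoter is printed because it was the only one of the 8 with a CArG box, the 10-base element bound by serum response factor, the classical regulator of actin genes, and the Vim promoter because it alone held TATAAA. The 120 bases before each start are given 5′ to 3′ on the strand of the gene, Actg1 at chr11:120348496-120348615 (minus) and Vim at chr2:13574191-13574310 (plus), with the CArG box of Actg1 and the TATAAA of Vim in capitals.
Actg1: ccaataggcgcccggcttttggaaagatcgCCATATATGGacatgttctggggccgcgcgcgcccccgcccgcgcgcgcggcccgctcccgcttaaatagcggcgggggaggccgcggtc
Vim: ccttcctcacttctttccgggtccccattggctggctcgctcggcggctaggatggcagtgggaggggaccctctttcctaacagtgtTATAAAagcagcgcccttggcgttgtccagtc
The box of Actg1 begins 90 bases before the start, and the TATAAA of Vim begins 32 bases before it. Of all 32851 promoters in the table, searched on both strands, 13.6% held TATAAA and 1.63% held a CArG box. The element GGGCGG was found in every one of the 8 except Vim, and in 35.7% of all promoters. CCAAT was found in Actg1, Cfl1 and Vim, and in 37.4% of all. A match describes the letters of a window and does not show binding.

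Other genes of the cytoskeleton, 187 genes in 12 lists, were read from the fit across all genes. Of these, 137 could be tested. The lists were chosen with earlier results of these data known, so their counts are a description. The thresholds were an adjusted p under 0.05 by limma on log2(FPKM + 1), which 26.4% of all genes passed, 13.3% as lower in KO and 13.1% as higher. Of the 137 genes, 39 (28.5%) were lower in KO and 11 (8.03%) higher, and their median log2 difference was -0.61. All 50 of these calls held in the same direction without WT 2. The counts changed when single libraries were left out. Without WT 2, 70 genes were lower and 25 higher (51.1% and 18.2%, when 25.3% and 26.8% of all genes were). Without WT 1 the counts were 23 and 8. Without KO 1, KO 2 or KO 3 they were 18 and 7, 16 and 5, and 17 and 5. The share of all genes was not counted without WT 1, KO 1, KO 2 or KO 3. Whether those lower counts are particular to these genes thus cannot be told. In TPM the counts were 19 and 17 (13.9% and 12.4%, when 8.07% and 17% of all genes were).

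Of 12 tested genes for subunit binding and turnover, 3 were lower in KO, 0 were higher and 9 did not pass, with a median log2 difference of -0.74. Dstn, which encodes destrin, the closest relative of cofilin among non-muscle forms, had an FPKM of 122, 45.3 and 34.6 in WT 1 to WT 3 and of 1.63, 2.46 and 1.56 in KO 1 to KO 3. It fell by 4.36 on the log2 scale (SE 0.48, limma, adjusted p = 0.00154). The fall of Dstn thus stood beside a Cfl1 level whose groups overlapped. Ssh1, which encodes a slingshot phosphatase that activates cofilin, fell by 2.91 (SE 0.23, limma, adjusted p = 0.000479), from 5.57 to 8.82 FPKM in WT to 0.0214 to 0.0838 in KO. The other slingshot genes of the list did not pass, Ssh2 at -1.80 and Ssh3 at 0.48 (limma, adjusted p = 0.0682 and 0.272). Ssh2, with a higher mean FPKM in WT (23.2) than Ssh1 (7.03), passed without WT 2, at -2.46. Twf2, encoding the subunit-binding protein twinfilin-2, fell by 2.31 (limma, adjusted p = 0.0199), a call lost without KO 1 (-2.29), without KO 2 (-2.32) or without KO 3 (-2.32). Cap1, the most abundant gene of the list, was lower in every KO library (70.2 to 104 FPKM) than in any WT library (129 to 211) but missed the threshold (log2 difference -0.99, SE 0.33, limma, adjusted p = 0.0687). Leaving out WT 2 brought Cap1 past it, at -0.96.

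The Arp2/3 complex, which starts branched filaments, had 9 subunit genes tested, of which 2 were lower, 0 higher and 7 did not pass. The median log2 difference was -0.88, and 7 of the 9 had groups apart with KO lower, as had 22.9% of all genes. Arpc1b, which encodes the subunit form that prevails in blood cells, had an FPKM of 119, 307 and 79.6 in WT 1 to WT 3 and of 37.3, 33.9 and 42.2 in KO 1 to KO 3, a log2 difference of -1.90 (SE 0.51, limma, adjusted p = 0.0359). Arpc2 had -1.04 (SE 0.29, limma, adjusted p = 0.0415). Arpc1b lost the threshold without WT 1 (-2.03), KO 1 (-1.89), KO 2 (-1.82) or KO 3 (-1.98), and Arpc2 without WT 1 (-0.97), WT 3 (-1.18), KO 1 (-0.98), KO 2 (-1.03) or KO 3 (-1.11), as well as in TPM, where it was at -0.21. Without WT 2, 6 of the 9 were lower and 2 higher.

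Of 21 regulators of the Arp2/3 complex, with the remaining coronins, 2 were higher, 2 were lower and 17 did not pass, which is 9.52% in each direction and under the share of all genes. Abi3, which encodes an adaptor of the WAVE complex, rose from 1.11 to 1.54 FPKM in WT to 10.6 to 12.5 in KO (log2 difference 2.51, SE 0.23, limma, adjusted p = 0.000746), whereas its relative Abi2 fell by 1.13 (limma, adjusted p = 0.00508). The coronin gene Coro2b rose by 1.16 (limma, adjusted p = 0.00672), from at most 0.158 FPKM in WT. Brk1, the most abundant gene of the list, had -0.55 and did not pass (limma, adjusted p = 0.583), and its sign turned without WT 2 (0.21) and in TPM (0.29). Among 8 formins, which extend unbranched filaments, 4 were lower and 1 was higher. Inf2 fell by 3.11 (SE 0.30, limma, adjusted p = 0.000918) and Daam1 by 1.46 (limma, adjusted p = 0.00631). Diaph3, a formin of dividing cells, rose by 1.43 (limma, adjusted p = 0.0171), but did not pass without KO 2 (1.46) or KO 3 (1.28).

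Filament crosslinking, capping and severing proteins had 6 of 13 genes lower and 1 higher. The plastin relatives of Lcp1, Pls1 and Pls3, were under the filter. Flna, which encodes filamin A, the main crosslinker of leukocyte actin, had an FPKM of 242, 143 and 117 in WT 1 to WT 3 and of 27.3, 31.9 and 42.0 in KO 1 to KO 3. It fell by 2.23 on the log2 scale (SE 0.36, limma, adjusted p = 0.00580), and in TPM, at -1.42, it did not pass. Actn2 was the gene that rose, by 1.47 (limma, adjusted p = 0.00621), with 1.51 to 3.06 FPKM in KO. Of 12 tropomyosin and non-muscle myosin genes, 5 were lower and 1 was higher. Myo1f, a class I myosin of blood cells, had 90.7, 37.7 and 48.4 FPKM in WT 1 to WT 3 and 2.04, 1.73 and 4.29 in KO 1 to KO 3, a fall of 3.99 (SE 0.42, limma, adjusted p = 0.00132). Myl12b, a myosin regulatory light chain gene, fell by 1.83 (limma, adjusted p = 0.00186) and did not pass in TPM (-1.54).

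Membrane linkers had 2 of 10 genes lower and 0 higher. Zyx, which encodes zyxin, a protein of adhesion sites, fell by 3.87 (SE 0.43, limma, adjusted p = 0.00160) from 80.7 to 192 FPKM in WT to 4.43 to 10.03 in KO, and Vasp, encoding a filament elongation factor, fell by 2.40 (limma, adjusted p = 0.00239). Vasp did not pass in TPM (-1.59). Ezr, which encodes ezrin, lay higher in each KO library (155 to 197 FPKM) than in each WT library (73.9 to 116) but missed the threshold (0.82, limma, adjusted p = 0.102). Leaving out WT 2 brought Ezr past it, at 0.64. Among GTPase genes, Rhob, an immediate early gene, had 119, 152 and 149.8 FPKM in WT 1 to WT 3 and 0.526, 0.622 and 1.03 in KO 1 to KO 3, which was the largest fall among the 137 genes, at 6.36 (SE 0.24, limma, adjusted p = 0.000223). Cdc42 fell by 1.37 (limma, adjusted p = 0.0135), a call that was lost in TPM (-0.54), without WT 1 (-1.26) and without KO 1 (-1.28), KO 2 (-1.40) or KO 3 (-1.42). Rac2, the Rac form of blood cells, did not pass (-0.69, limma, adjusted p = 0.356), and its log2 difference in TPM was 0.15.

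Serum response factor and its coactivators MRTF drive many actin genes, and MRTF is itself held back by actin subunits. Of 7 genes of that list, 4 were lower and 1 was higher. Srf had an FPKM of 35.7, 21.9 and 29.4 in WT 1 to WT 3 and of 11.9, 13.2 and 13.4 in KO 1 to KO 3, a fall of 1.09 (SE 0.26, limma, adjusted p = 0.0225). Mrtfa, listed as Mkl1 in the deposited table, fell by 1.19 (SE 0.22, limma, adjusted p = 0.00947). Cnn2, which encodes calponin-2, had 215, 512 and 157 in WT 1 to WT 3 and 19.5, 23.5 and 39.5 in KO 1 to KO 3, and fell by 3.25 (SE 0.52, limma, adjusted p = 0.00543). Cnn2 passed in all 15 alternative fits. Its relative Cnn3 was the gene that rose, from 0.725, 6.53 and 0.255 FPKM in WT 1 to WT 3 to 13.0, 14.1 and 15.5 in KO 1 to KO 3. The rise of Cnn3 was 2.58 (SE 0.66, limma, adjusted p = 0.0304). It did not pass with a pseudocount of 0.1, without the filter on low values, or when any 1 library other than WT 2 was left out (2.07 to 2.64). Srf did not pass in TPM (-0.31), without WT 1 (-0.93), WT 3 (-1.07), KO 1 (-1.04), KO 2 (-1.11) or KO 3 (-1.12), and Mrtfa did not pass in TPM (-0.40) or without KO 2 (-1.12).

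Of 5 tested genes in the list of intermediate filaments and lamins (Lmna, Lmnb1, Lmnb2, Plec and Lbr), 1 was lower and 1 higher. The filament genes Des, Nes, Gfap, Prph, Krt8 and Krt18 of that list were under the filter and were not tested. Lmna, which encodes the A-type lamins of the nuclear envelope, fell by 3.20 (SE 0.50, limma, adjusted p = 0.00512), from 13.04 to 49.9 FPKM in WT to 1.32 to 1.63 in KO. Lmnb2 rose by 1.15 (limma, adjusted p = 0.0111), and did not pass without KO 1 (1.11), KO 2 (1.20) or KO 3 (1.14). Of 5 galectins besides Lgals1, Lgals3 fell and Lgals9 rose. Lgals3, encoding galectin-3, which is abundant in macrophages, had 97.1, 356 and 30.9 FPKM in WT 1 to WT 3 and 1.96, 1.13 and 0.970 in KO 1 to KO 3 (log2 difference -5.49, SE 0.83, limma, adjusted p = 0.00453). Lgals9, encoding galectin-9, had 50.4, 101 and 37.6 in WT and 139, 157 and 205 in KO, a rise of 1.496 (SE 0.43, limma, adjusted p = 0.0439) that did not pass when any 1 library other than WT 2 was left out (1.19 to 1.62).

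Tubulins and stathmin, the microtubule genes, were examined as the other dynamic filament system. Of 16 tested, 3 were higher and 2 lower, with a median log2 difference of 0.53, and without WT 2 the counts were 9 higher and 3 lower. Tubb2b rose by 5.66 on the log2 scale (SE 0.72, limma, adjusted p = 0.00241), from 0.254, 6.08 and 0.141 FPKM in WT 1 to WT 3 to 139, 106 and 86.3 in KO 1 to KO 3. Its neighbour and near-identical copy Tubb2a rose by 3.44 (SE 0.35, limma, adjusted p = 0.00120), and the split of reads between these 2 genes is uncertain. Tubb6 fell by 1.94 (limma, adjusted p = 0.00927). Tubb5, the most abundant gene of the list, had 149, 388 and 121 in WT and 230.4, 247 and 311 in KO, and missed the threshold (0.44, limma, adjusted p = 0.571). Tubb5 passed in TPM, at 1.28, and when WT 2 was left out, at 0.95.

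**Figure D4:**
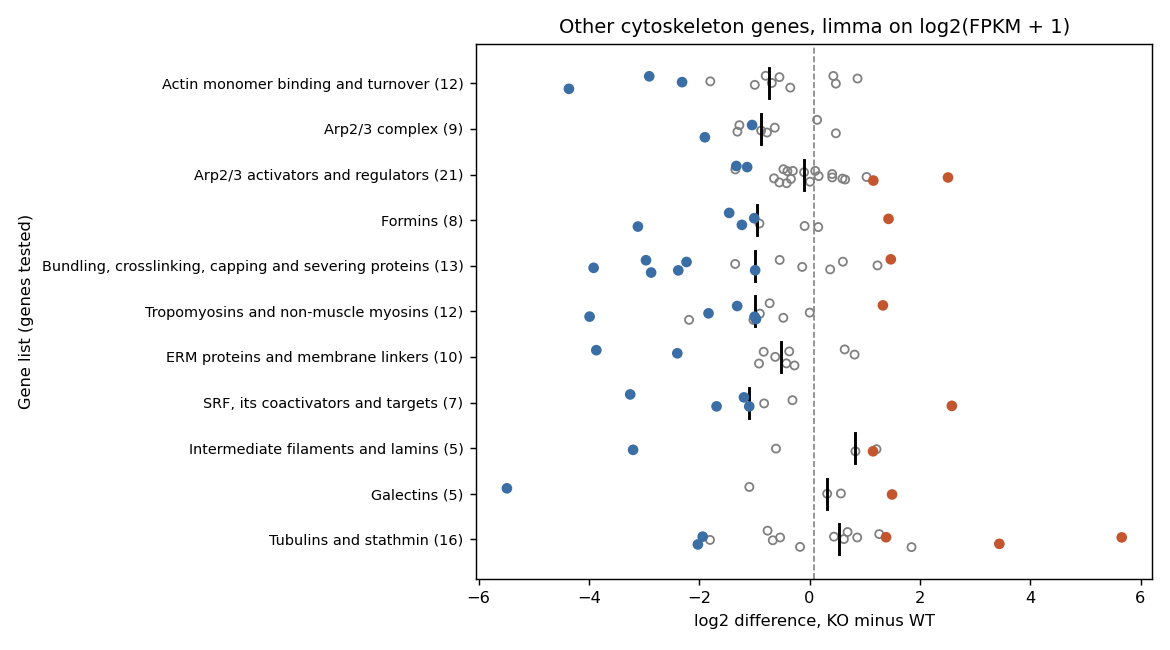
Log2 difference (KO minus WT) of 118 cytoskeleton genes in 11 of the lists, with filled points for genes past an adjusted p of 0.05 by limma (blue lower, orange higher in KO), open points for the rest, black lines for list medians and a dashed line for the median of all genes. Actin lists lie to the left of the dashed line, with medians from -1.09 to -0.10. The lists of tubulins (0.53), of intermediate filaments and lamins (0.83, from lamin genes, Plec and Lbr only) and of galectins (0.32) lie to the right.

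Neutrophil, monocyte and cytotoxic cell markers were also lower in KO, and markers of other types were mixed. By limma, 13.3% of all genes tested were lower in KO and 13.1% higher. All 14 neutrophil markers were lower in KO by limma, and their summed FPKM was 6943 to 95737 in WT and 94.6 to 293 in KO, with none at 0. Of 10 tested monocyte and macrophage markers 8 were lower, summing to 673 to 5197 in WT and 23.9 to 34.5 in KO. Of 10 tested NK and cytotoxic markers 9 were lower and 1 was higher (1992 to 5364 in WT and 587 to 663 in KO). Of the markers tested, 1 of 6 for B cells, 0 of 9 for erythroid cells and 1 of 3 for megakaryocytes with platelets were lower. Their sums were 15.2 to 1315, 140 to 68148 and 17.3 to 77.7 in WT, highest in WT 2 for each, and 3.39 to 3.84, 17.0 to 127 and 2.16 to 4.13 in KO. Gp1bb was at 0 in every library and Ppbp in every KO library. The 12 stromal and endothelial markers summed to 7.70 to 16.8 in WT and 31.3 to 40.7 in KO, with Emcn and Kdr at 0 in KO, and the 2 that could be tested were higher in KO. Within the WT group the neutrophil sum was lowest in WT 3 and highest in WT 2, and 8 of the 10 genes had their libraries in the same order (not Tmsb10 and Lcp1), as had 22.8% of all genes tested. Within the KO group the sum was lowest in KO 1 and highest in KO 3, and 7 of the 10 followed that order (not Tmsb10, Actb and Vim), as did 19.2% of all genes. The summed FPKM of all genes ran in the same order in both groups, so the match cannot be told apart from the scaling of libraries. The part of these cells in the differences described above was not tested.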

How the data were processed

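RNA of BM cells was sequenced by the authors (Illumina NovaSeq, paired ends) after Trizol extraction and NEBNext library preparation. The submitters' processing notes name HISAT2 (version 2.0.5), featureCounts (version 1.5.0-p3) and the build GRCm38. The deposited table gives FPKM per gene and library, made by the authors, with the gene length they used. The annotation release and use of strand are not given in the sources used here. Coordinates of the 10 genes were identical to the GRCm38 annotation for 10 of 10.

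FPKM times length was a whole multiple of 1 step, within 0.01, for 100% of values above 0, which gave the reads per gene. The library size the authors divided by was 1.01, 0.645 and 1.06 times the recovered reads in WT 1 to WT 3. In KO 1 to KO 3 it was 1.16, 1.21 and 1.16 times. A scaling per library is thus part of the values. Relative to division by the reads, it raised FPKM in WT 2 and lowered it in the other libraries, more in KO than in WT 1 and WT 3. The genotype labels name a gene whose final digit rises along each group, and all were read as Phf6 from the series' design.

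The study's count model was replaced by limma (version 3.58.1, R version 4.3.3; two-sided moderated test with a trend on mean level) on log2(FPKM + 1), since FPKM is the deposited unit and the reads are recovered from it, and voom on those reads was an alternative. That scale understates changes of low genes. The fit took the 13393 genes that reached FPKM 1 in 3 or more of 6 libraries, with Benjamini-Hochberg adjustment over all of them and 0.05 as threshold. The fit was tested on simulated data. The 10 genes and the lists were chosen with earlier results of these data known. From each list, up to 4 genes with the smallest p among those past the threshold and the gene with the highest mean FPKM could be named by rule. A few other genes of the lists are mentioned beside them. A gene called higher or lower with no exception named passed in all 15 alternative fits. The exceptions named are those in TPM and with a library left out. With the replicate number as a block, Arpc1b, Arpc2, Diaph3, Cdc42, Srf, Mrtfa and Lgals9 did not pass either. Nor did Arpc1b, Arpc2 and Lgals9 without the filter on low values, or Arpc2 and Cdc42 after quantile normalization. By voom, Arpc2, Cdc42, Srf and Mrtfa did not pass. Python 3.11.15, pandas 2.3.3, NumPy 2.4.6 and Matplotlib 3.10.9 were used for the rest. Intervals were not computed from reads, since PCR copies are not independent molecules. Some results of the lists are not reported here.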

Additional observations from a re-analysis of the deposited data

How the results depend on the processing

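The alternatives were a pseudocount of 0.1, no filter on low values, TPM, median-of-ratios scaling, quantile normalization, removal of the length trend, array weights, a replicate block, voom on recovered reads and leaving out each library, with a stricter threshold for the counts of pathway genes. The median log2 difference of the 10 genes (-1.48) was -0.65 in TPM and -0.59 after quantile normalization, and between -1.78 and -1.15 with 1 library left out. Counts of the 10 with groups apart were 8 lower and 0 higher, except 7 lower and 1 higher in TPM and 4 lower and 1 higher after quantile normalization, where Actb (0.0062) and Coro1a (0.037) changed sign. Pathway genes past the threshold (39 lower and 11 higher) came to 28 and 7 without the filter, 19 and 17 in TPM, 34 and 21 after quantile normalization, 79 and 23 with array weights, 24 and 13 by voom, 17 and 5 at an adjusted p under 0.01, and 16 to 70 lower and 5 to 25 higher with 1 library left out. With the replicate block there were 25 lower and 7 higher. Shares of all genes were counted only for the main fit, for TPM and without WT 2. The other counts given here therefore cannot be set against all genes. Deviations of same-numbered libraries from their group means correlated at 0.0954, 0.105 and -0.153, and not every library correlated best with its own number. The labels do not say whether same-numbered libraries were prepared together. These correlations cannot decide it, since the deviations within a group sum to 0 for each gene. For pathway genes named by rule, 565 values under alternatives kept their side of the threshold, 109 lost it and 16 gained it, and Brk1 and Rac2, which did not pass, changed sign in some. The cause of these shifts was not tested. Depth did not limit the 10 genes, the lowest of which had 362 reads.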

Other observations

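The profile of the 10 genes over the 6 libraries was compared with that of 4853 other protein-coding genes with a mean FPKM of at least 10, as a description. The 5 closest by Pearson's r with the mean profile of the 10 were Hspa8, Slc35c2, Cdk2ap2, Arpc1b and Ints3, at r between 0.997 and 0.999 (n = 6 libraries, which form 2 groups and share the scaling of each library). Hspa8, a heat shock protein gene, had an FPKM of 518, 1342 and 373 in WT 1 to WT 3 and of 174, 194 and 229 in KO 1 to KO 3. Of the 10 genes themselves, Tmsb4x (r = 0.996) and Pfn1 (r = 0.984) lay closest to the mean profile and Cfl1 (r = 0.657) farthest. Arpc1b is also the member of the Arp2/3 list with the smallest p-value.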
